A study of Cyprinus carpio with 6 samples.

Results

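The genes described here encode the proteins of the mitochondrial ribosome in common carp (Cyprinus carpio) embryos. They were taken by name, as every gene symbol in the per-library tables that begins with mrpl or mrps followed by a digit. Those tables list only genes with a count, and no further limit on expression was set. This gave 44 genes of the 40568 annotated genes and assembled loci with a count in any library, 28 named mrpl for the large subunit and 16 named mrps for the small subunit. The embryos were whole and at the mid-blastula stage. In 3 libraries they came from 14-day-aged sperm, kept on ice in an extender for 14 days after stripping, and in the other 3 from fresh sperm used on day 0. Sperm of both groups came from the same mature males, and oocytes of a single female were used for both. RNA was enriched with oligo(dT) beads, so that polyadenylated transcripts were read. The male behind each library is not given in the sources used here, and the p-values therefore cover the spread among these libraries alone. In whole embryos, fewer cells of a type and less RNA per cell cannot be told apart.

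Mitochondrial ribosomal proteins (MRPs) are encoded in the nucleus, made on cytosolic ribosomes and imported into mitochondria, where they join ribosomal RNA from the mitochondrial genome. The ribosome they form translates the few mRNAs of that genome, all of them for membrane proteins of the respiratory chain and ATP synthase. Some MRPs have a bacterial counterpart from the ancestor of the organelle, and others were added in the course of mitochondrial evolution. At the blastula stage the mitochondria and most of the mRNA of a fish embryo are of maternal origin.

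Total estimated counts were 14993459 to 15632387 per library, of which the MRP genes took 0.0445 to 0.0487%. Markers of cell type were looked up by symbol, and counted genes with a number in place of a name were not searched. A marker without a count may thus be present under another name. Of 14 genes listed as markers of the blastula or of maternal RNA, 7 had a count. Their mean levels ran from 0.298 FPKM for mxtx2 to 1576 FPKM for ccnb1, a maternal cyclin. The other 7, such as zar1 and buc, were not listed under their symbols. nanog and pou5f3, transcription factors of the pluripotent blastula, averaged 599 and 336 FPKM. FPKM scales fragments by gene length and library size and is the unit used here to compare genes. Of 14 genes listed as markers of differentiated tissue, 2 had a count, with at most 1 in a library. Of 12 sperm and testis markers, 4 had a count. dmrt1, a regulator of testis development, had 138 to 174 counts per library, and the other 3 had 0 or 1.

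In the RefSeq annotation of the assembly ASM1834038v1, 17 of the 44 genes lie on A chromosomes and 25 on B chromosomes, the subgenomes of the allotetraploid carp, and 2 are unplaced. That annotation has 45 such symbols. The remaining one, mrpl10, a protein of the ribosomal stalk, was not listed in any of the 6 libraries. A further 24674 counted genes carry a LOC number in place of a name, so MRP genes among these were not included. By the position of the product in known mammalian structures, 30 of the 44 genes belong to the large subunit, including mrps18a and mrps30 in spite of their names, and 13 to the small subunit. The product of mrps36 is now regarded as part of the oxoglutarate dehydrogenase complex of the citric acid cycle.

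Levels of the MRP genes spanned a 599-fold range (the plot of FPKM by gene and library). mrpl20, on chromosome A22 from 266648 to 269877, was the highest with a mean of 64.9 FPKM over the 6 libraries. The lowest was mrps25, a small-subunit protein, with 0.108 FPKM and at most 2 counts in a library. The lower end of the range is thus near the floor of detection. Among the genes with enough counts for the test below, mrpl52 was the lowest with 0.748 FPKM. The median gene stood at 8.09 FPKM, against 1.51 FPKM over all counted genes. The 5 highest genes were mrpl20, mrpl3, mrps22, mrpl22 and mrpl44, and together they made up 41.7% of the summed FPKM of the family. A mean above 10 FPKM was found for 17 genes and one below 1 FPKM for 9 genes.

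**Figure D1:**
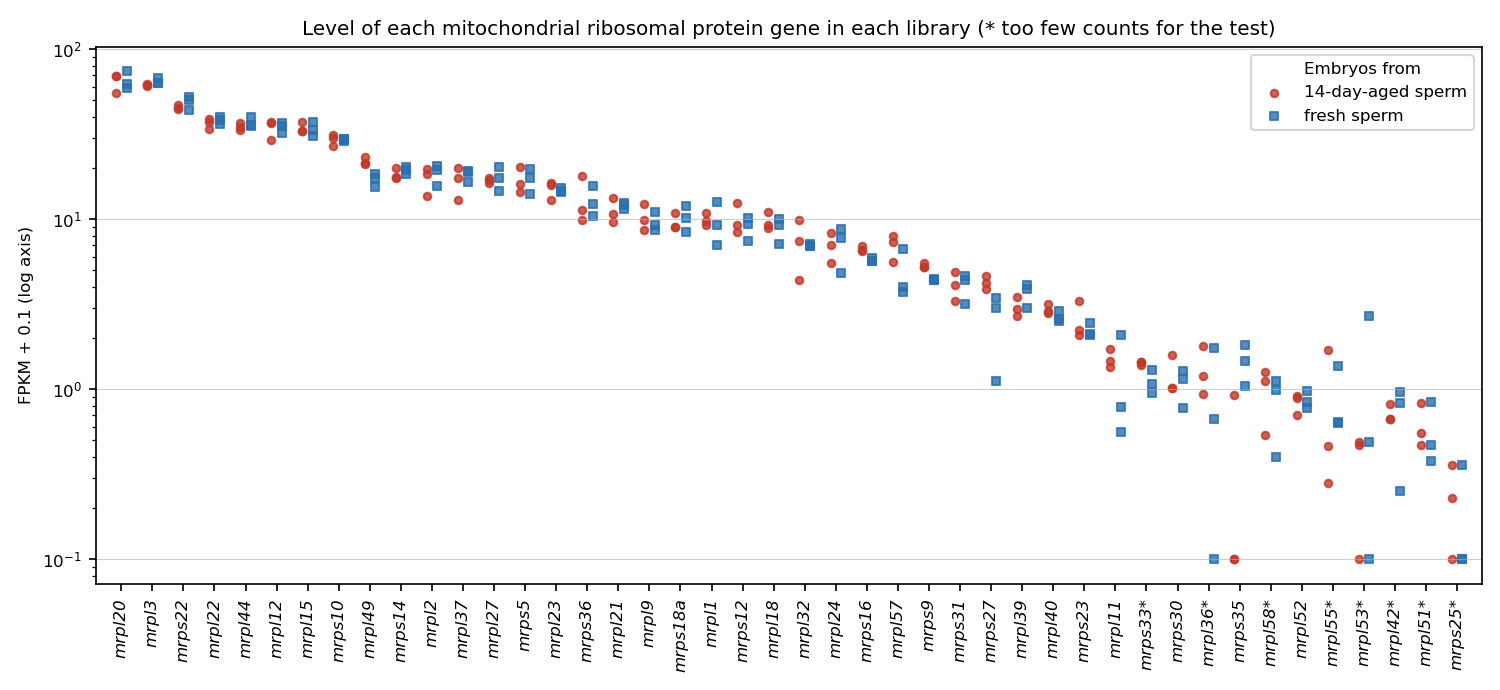
FPKM plus 0.1 on a log axis for each of the 44 genes, ordered by mean level, with 1 point per library for embryos from 14-day-aged sperm (circles, left of each position) and fresh sperm (squares, right). The spread between libraries of a gene widens among the lowest genes, and points on the lowest line are libraries in which the gene is not listed.

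mrpl3, a protein near the peptidyl transferase centre whose loss causes cardiomyopathy in humans, lies on chromosome A19 from 12409405 to 12414854. It stood at 62.6, 60.5 and 61.5 FPKM in embryos from 14-day-aged sperm, against 63.4, 62.8 and 68.0 FPKM in embryos from fresh sperm. mrps22, a small-subunit protein without a bacterial counterpart on chromosome B15 from 8354763 to 8359617, stood at 44.3, 44.8 and 47 FPKM after storage, against 43.7, 49.9 and 52.3 FPKM without it. mrpl44, related to ribonuclease III and also a human cardiomyopathy gene, stood at 34.8, 33.3 and 36.9 FPKM in embryos from 14-day-aged sperm, against 35.1, 35.7 and 40.0 FPKM in embryos from fresh sperm. In all of these abundant genes replicate 3 from fresh sperm was the highest library. The groups overlapped on this scale for mrps22 and mrpl44, while the mrpl3 libraries from aged sperm all lay below those from fresh sperm by a small margin.

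To ask whether sperm storage went with a change in these transcripts, estimated counts of both groups were fitted by quasi-likelihood in edgeR over the 27342 genes with enough counts. No MRP gene passed the test. Of the 44 genes 36 had enough counts, and 0 of these 36 had an adjusted p under 0.05, against 0.0146% of all genes tested. At an unadjusted p under 0.05 there was 1, mrpl49, against 3.36% of all genes. It was higher after storage, as were 1.47% of all genes at that limit, and 0 MRP genes were lower, against 1.9%. DESeq2 gave 0 of 43 at an adjusted p under 0.05, against 0.163% of all genes, and 0 of 44 at an unadjusted p under 0.05, against 1.82%. limma on log2(FPKM + 1) gave 0 of 36 at an adjusted p under 0.05, against 0.0219% of all genes. At an unadjusted p under 0.05 it gave 4 of 36 (11.1%), against 4.08% of all genes. These were mrpl49, mrps9, mrps27 and mrps35. Of them, mrps27 and mrps35 share reads with assembled loci, as described below.

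The median log2 fold change of the 36 genes, embryos from 14-day-aged sperm minus embryos from fresh sperm, was -0.0086, and over all tested genes it was -0.0009. It was above 0 for 17 of the 36, where 49.7% of all tested genes were above 0. The typical size of the difference, without its sign, was a median of 0.094 on the log2 scale for the MRP genes and 0.091 for all tested genes. Of the 36 fold changes, 28 lay within 0.2 of 0, where 75.3% of all tested genes did so, and 33 lay within 0.4. The summed level of all 44 genes was 478, 456 and 455 CPM (counts scaled to library size by TMM) after storage, against 476, 471 and 477 CPM without it. The means were 463 ± 12.8 CPM for 14-day-aged sperm and 475 ± 3.19 CPM for fresh sperm (SD over 3 libraries each), with the highest library (replicate 1) and the lowest (replicates 2 and 3) all from aged sperm. The fresh libraries lay between them, so the groups overlapped, and the larger SD of the aged group came with its replicate 1.

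A value that missed the threshold does not show that nothing changed, so the width of the intervals matters. For 23 of the 36 genes the 95% interval of the fold change lay within 1.5-fold in both directions, compared with 61.6% of all tested genes, and for 33 it lay within 2-fold, compared with 82.9%. For mrpl3 the log2 fold change was -0.085 with an interval of -0.24 to 0.066, and for mrpl15, a large-subunit protein of bacterial type, it was 0.014 with an interval of -0.19 to 0.22. For mrpl11, another protein of the stalk region with 4 to 17 counts per library, the interval reached from -0.82 to 1.69. A 2-fold increase lay inside this interval, and a 2-fold decrease did not. The counts of mrpl11 were 11, 12 and 14 after storage, against 6, 17 and 4 without it. Its log2 fold change of 0.43 became 1.25 without replicate 2 and 0.098 without replicate 3 from fresh sperm.

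**Figure D2:**
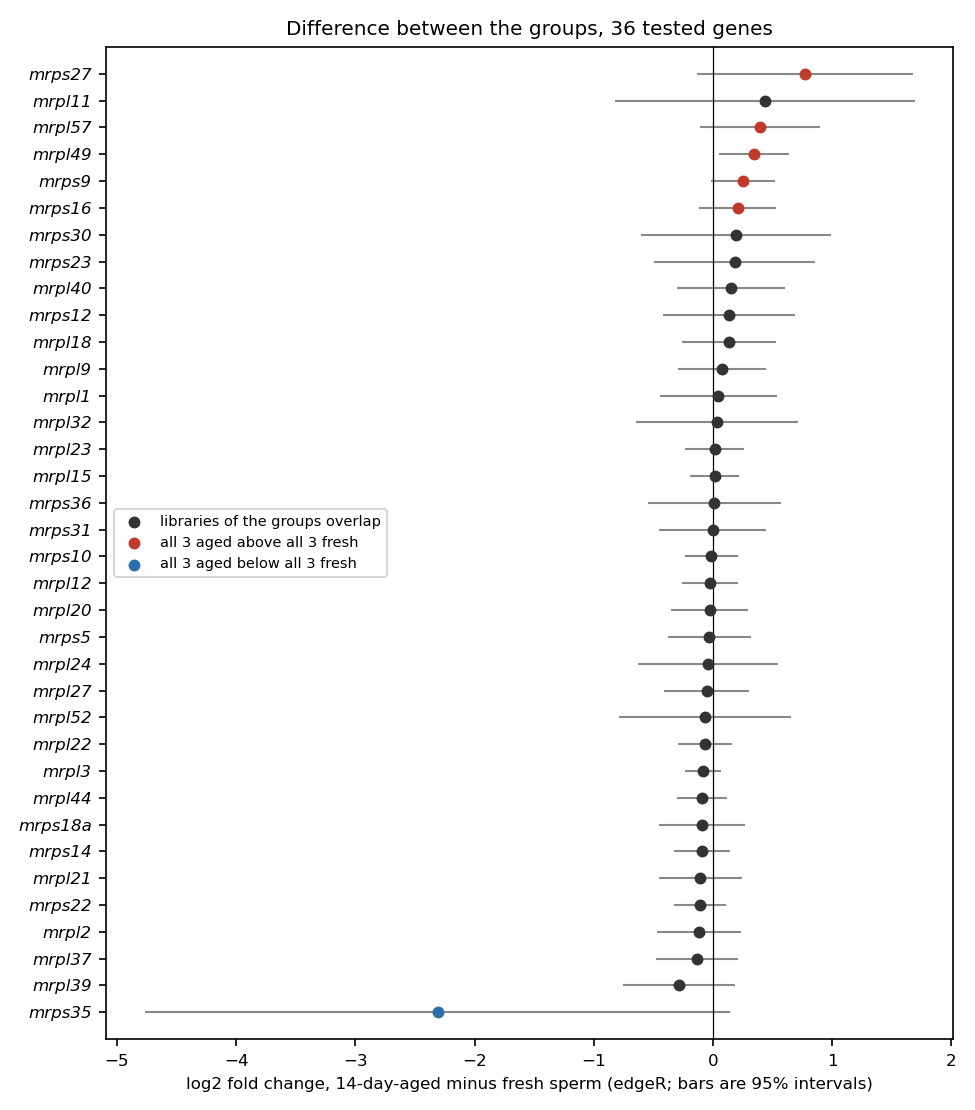
The log2 fold change of the 36 tested genes in embryos from 14-day-aged sperm relative to fresh sperm, with 95% intervals from edgeR's quasi-likelihood fit, coloured where all libraries of one group lay on one side of the other. Most points lie within 0.2 of 0, mrpl49 is the gene whose interval stays above 0, and mrps35 lies far to the left at -2.31 with the widest interval.

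On CPM the groups were fully separated in 6 of the 36 genes (16.7%), where 8.55% of all tested genes were separated. Of the 6, 5 had higher levels after storage (4.1% of all tested genes) and 1 had lower levels (4.45%). The 6 fell into 2 kinds. mrpl49, mrps9 and mrps16 had whole-number counts. mrpl57, mrps27 and mrps35 did not, and they were the only 3 of the 44 genes with fractional counts in the deposited tables.

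mrpl49, a large-subunit protein without a bacterial counterpart, lies on chromosome B10 from 13082370 to 13083521. It stood at 8.73, 9.98 and 9.49 CPM in embryos from 14-day-aged sperm, against 7.54, 6.55 and 8.12 CPM in embryos from fresh sperm. The lowest library after storage was above the highest without it, with means of 9.40 ± 0.632 CPM for aged and 7.4 ± 0.797 CPM for fresh sperm (SD, n = 3). The log2 fold change was 0.34 (standard error, SE, 0.125, unadjusted p = 0.0277 and adjusted p = 0.9998 from edgeR), and in DESeq2 the unadjusted p was 0.0899. With any single library left out the unadjusted p ran from 0.0219 to 0.0898 in edgeR and stayed under 0.05 in 2 of 6 cases.

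mrps9 and mrps16 are small-subunit proteins of bacterial type, the second of them linked to a human mitochondrial disease. mrps9, on chromosome A6 from 10519236 to 10538082, stood at 6.34, 6.29 and 6.42 CPM in embryos from 14-day-aged sperm, against 5.18, 5.37 and 5.46 CPM in embryos from fresh sperm. mrps16, on chromosome A11 from 22850860 to 22852294, stood at 4.27, 4.15 and 4.23 CPM after storage, against 3.6, 3.67 and 3.69 CPM without it. In both genes the libraries of each group lay close together. Both genes are described here because their groups did not overlap, so the gap between the groups follows in part from that choice. The spread within the groups rests on 3 libraries each and on few counts, so it is itself uncertain. The counts of mrps9 were 101, 97 and 94 after storage, against 79, 82 and 80 without it. Those of mrps16 were 68, 64 and 62 after storage, against 55, 56 and 54 without it. The log2 fold changes of mrps9 and mrps16 were 0.25 (SE 0.114) and 0.21 (SE 0.138). Their unadjusted p values were 0.0637 and 0.175 from edgeR over all genes, and 0.261 and 0.444 from DESeq2. With any single library left out, the unadjusted p from edgeR was under 0.05 in 0 of 6 cases for each gene.

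The 3 genes with fractional counts each had an assembled locus (named XLOC by the authors) whose fractional counts completed theirs to whole numbers. The search covered all counted loci. In each library where the gene had a fraction, the partner had to have one and the sum had to be whole within 0.015. There were 4 such libraries for mrpl57 and mrps35 and 6 for mrps27. The search gave 1 locus for each gene, and the sum was whole in 6 of 6 libraries for all 3 pairs. RSEM, the program named in the tables, divides a read that matches several loci among them, so that the parts add up to whole reads. Coordinates of the assembled loci are not given in the sources used here. Whether each is part of the same gene or a separate copy is therefore unknown. A sum over a pair may join different genes and hide opposite changes in them.

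mrps35, a small-subunit protein without a bacterial counterpart on chromosome B25 from 3590711 to 3600872, had 13.4, 0 and 0 estimated counts in embryos from 14-day-aged sperm, against 21.6, 27 and 15 in embryos from fresh sperm. Taken alone, this was the largest difference of the family, with a log2 fold change of -2.31 (SE 1.04, unadjusted p = 0.0616 from edgeR). Its size rests on replicate 1 from aged sperm, the only aged library with a count. Without that library the aged counts are all 0, and a fold against 0 has no fixed size. With any single library left out, the fitted log2 fold change ran from -7.42 to -1.74. The unadjusted p ran from 0.0004 to 0.149 in edgeR and was under 0.05 in 1 of 6 cases. The partner of mrps35, XLOC_043099, ran the other way, with 59.6, 56 and 75 counts after storage, against 47.4, 55 and 32 without it. Taken alone, its log2 fold change was 0.49 (SE 0.243 from edgeR). The sums were 73, 56 and 75 counts in embryos from 14-day-aged sperm, against 69, 82 and 47 in embryos from fresh sperm. These overlap, and with the pair fitted as a single locus the log2 fold change was 0.024 (SE 0.232, unadjusted p = 0.920 from edgeR), with the opposite sign. mrps35 held 18.3, 0 and 0% of the pair after storage and 31.3, 33 and 32% without it. Whether the division of reads accounts for the difference in mrps35 was not tested.

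mrps27, an RNA-binding protein of the small subunit on chromosome B8 from 1230098 to 1240019, had 66.5, 78.5 and 69.9 estimated counts in embryos from 14-day-aged sperm, against 57.1, 49.6 and 17.3 in embryos from fresh sperm. Replicate 3 from fresh sperm was far below the rest, and the log2 fold change of 0.77 (SE 0.383) came to 0.41 without that library. The partner XLOC_029616 was highest in the same library, with 62.6, 68.5 and 35.1 counts after storage, against 56.9, 62.4 and 89.7 without it. The sums were 129, 147 and 105 counts after storage, against 114, 112 and 107 without it, and the log2 fold change of the pair was 0.17 (SE 0.134, unadjusted p = 0.254 from edgeR).

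mrpl57, a small protein of the large subunit on chromosome B17 from 13499168 to 13500695, also had a smaller fold change once its pair was summed. It had 38, 45 and 35.2 estimated counts in embryos from 14-day-aged sperm, against 26.8, 35.4 and 25.6 in embryos from fresh sperm, and its partner XLOC_037311 had 0, 0 and 2.81 after storage, against 8.21, 2.62 and 5.44 without it. The log2 fold change was 0.40 (SE 0.213) for the gene and 0.19 (SE 0.187) for the pair. The sums were 38, 45 and 38 counts after storage, against 35, 38 and 31 without it, so the groups met at 38. On CPM the sums overlapped slightly, with 2.39 in replicate 1 from aged sperm and 2.49 in replicate 2 from fresh sperm. On FPKM the groups overlapped for mrpl57 itself too, since replicate 3 from aged sperm stood at 5.51 FPKM and replicate 2 from fresh sperm at 6.60 FPKM. The number of separated genes was 6 there as well, with mrpl3 in place of mrpl57. With the 3 pairs summed, a processing chosen after seeing the data, 3 of 36 genes remained without overlap, namely mrpl49, mrps9 and mrps16. This was 8.33% of the MRP genes, against 8.54% of all genes in that fit. Only these 3 pairs were summed there, and read-sharing loci of other genes were not sought. The shares are thus not like for like.

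**Figure D3:**
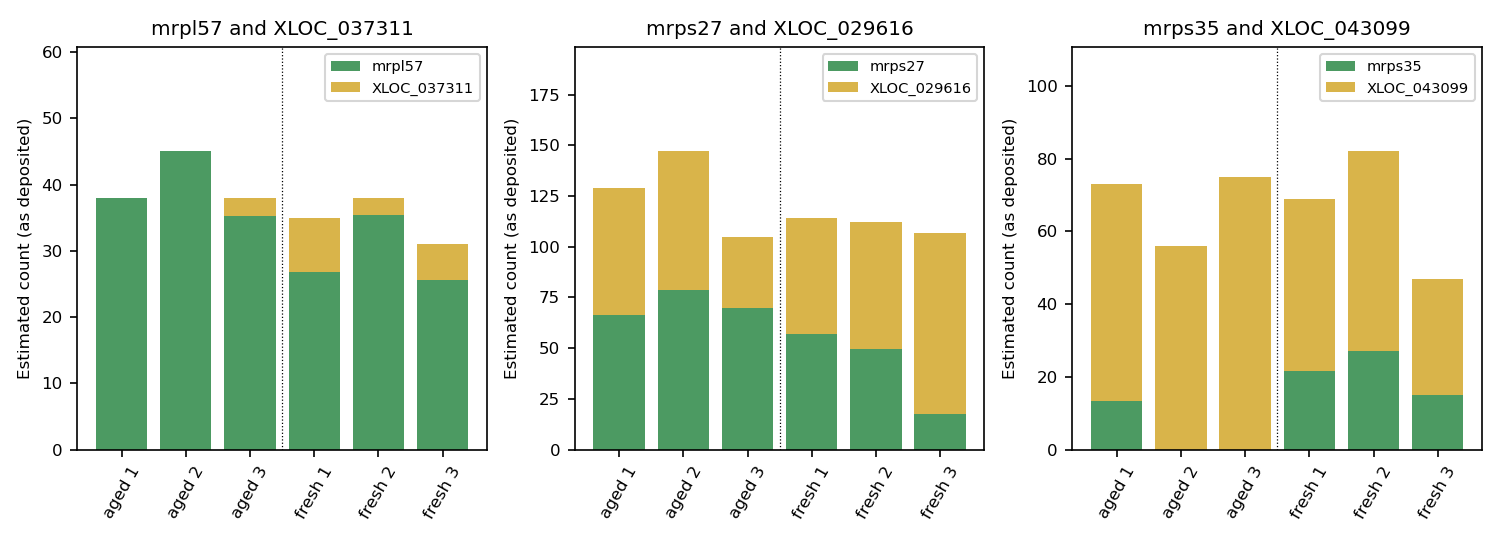
Estimated counts of mrpl57, mrps27 and mrps35 (lower bars) with those of the assembled locus that completes each to whole numbers (upper bars), for the 3 libraries from 14-day-aged sperm (left of the dotted line) and the 3 from fresh sperm (right). The full height of the bars differs less between the groups than the lower part does, most plainly for mrps35, whose sums were 56 to 75 counts after storage and 47 to 82 without it.

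Of the stalk proteins, through which translation factors reach the ribosome, mrpl12 was well measured. In mammals the protein also binds mitochondrial RNA polymerase. It stood at 28.9, 29.2 and 23.8 CPM in embryos from 14-day-aged sperm, against 29.4, 27.8 and 26.3 CPM in embryos from fresh sperm. Replicate 3 was the lowest library in each group, and the log2 fold change was -0.026 (SE 0.10). mrpl1, of the stalk at which spent tRNA leaves, stood at 7.10, 8.49 and 7.85 CPM after storage, against 9.89, 7.14 and 5.67 CPM without it. The fresh libraries enclosed the aged ones, and its log2 fold change was 0.045 (SE 0.209).

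At the core of the large subunit, mrpl2 stood at 16.3, 15.6 and 12 CPM in embryos from 14-day-aged sperm, against 17.6, 16.4 and 13.8 CPM in embryos from fresh sperm (log2 fold change -0.12, SE 0.150). mrpl22, which lines the exit tunnel of the nascent chain, averaged 24.3 ± 2.10 CPM with 14-day-aged sperm and 25.5 ± 1.74 CPM with fresh sperm (SD over 3 libraries). mrpl20, of bacterial type, averaged 24.4 ± 3.29 CPM with 14-day-aged sperm and 24.9 ± 3.37 CPM with fresh sperm. The groups overlapped in all of these. mrpl37 and mrpl39, additions to the mitochondrial large subunit, had the most negative fold changes after mrps35, at -0.13 (SE 0.145) and -0.29 (SE 0.20). mrps18a and mrps30 had log2 fold changes of -0.093 (SE 0.152) and 0.19 (SE 0.339).

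In the small subunit, mrps12 lies at the decoding centre and stood at 2.32, 1.69 and 1.91 CPM in embryos from 14-day-aged sperm, against 1.51, 1.96 and 1.91 CPM in embryos from fresh sperm. mrps5 stood at 25.4, 20.7 and 19.2 CPM after storage, against 25.5, 22.4 and 18.8 CPM without it. Each library of mrps5 had a close counterpart in the other group, and the log2 fold change was -0.029 (SE 0.148). mrps36 stood at 11.7, 7.65 and 6.83 CPM after storage, against 8.19, 10.5 and 7.30 CPM without it, with its highest and its lowest library both from aged sperm. mrps23 and mrpl52, among the 5 lowest tested genes along with mrpl11, mrps30 and mrps35, had log2 fold changes of 0.18 (SE 0.287) and -0.066 (SE 0.307).

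The other tested genes lay close to 0. In the large subunit, all of bacterial type but mrpl40, the log2 fold changes were 0.074 for mrpl9, 0.13 for mrpl18, -0.11 for mrpl21, 0.015 for mrpl23, 0.034 for mrpl32 and 0.15 for mrpl40. In the small subunit they were -0.014 for mrps10, -0.094 for mrps14 and -0.0035 for mrps31. mrpl32, which is processed by a protease after import, was the most uneven of these, with 2.83, 3.89 and 1.77 CPM after storage, against 2.82, 2.68 and 2.80 CPM without it.

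The 8 genes with too few counts for the test were mrpl36, mrpl42, mrpl51, mrpl53, mrpl55, mrpl58, mrps25 and mrps33. mrpl58, a peptidyl-tRNA hydrolase built into the large subunit that can free stalled chains, had 7, 8 and 3 counts in embryos from 14-day-aged sperm, against 7, 6 and 2 in embryos from fresh sperm. mrps33, of the small subunit, had 8, 8 and 8 counts after storage, against 6, 7 and 5 without it. mrps25 was listed in 3 of the 6 libraries, with at most 2 counts. The others had between 0 and 9 counts in any library. No fold change is given for these genes, because the depth does not allow one. The annotated loci of 5 counted MRP genes overlap another gene. mrpl51 overlaps tfpt and mrpl27, a bacterial-type protein of the large subunit, overlaps eme1, which averaged 116 and 518 counts. mrpl11, mrpl40 and mrpl20, the highest MRP gene, overlap tmem265, ca8h22orf39 and sdhb, which were not listed in any library. mrpl10, itself not listed, overlaps osbpl7, which averaged 2178 counts. The sources used here do not say whether counting used strand, so reads of each pair may not be told apart and these levels are uncertain.

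The large-subunit genes had the higher typical level. Their median, over 30 genes, was 9.95, 9.21 and 8.74 FPKM in embryos from 14-day-aged sperm, against 9.59, 9.10 and 6.96 FPKM in embryos from fresh sperm. The median of the 13 small-subunit genes was 5.42, 5.13 and 5.14 FPKM after storage, against 4.30, 4.56 and 4.32 FPKM without it. In each library this median is the value of a single gene. That gene was mrps9 in the 3 aged libraries and in replicate 3 from fresh sperm, and mrps31 in replicates 1 and 2 from fresh sperm. The gap between the groups is thus that of these genes and not shown for the class. The ratio of the medians was 1.61 to 2.23 and lower in both replicate 3 libraries than in the other libraries of their group. The 23 genes of bacterial type had a median of 11.5 FPKM and the 21 others 2.70 FPKM, over the mean of 6 libraries. The 21 others include mrps36, which is not counted as a structural subunit. The classes were set by hand from general knowledge of mammalian structures. The tested genes of each class had a median log2 fold change near 0, with -0.028 for 24 large-subunit genes, -0.0035 for 11 small-subunit genes, -0.014 for 21 bacterial-type genes and -0.0035 for the 15 others. These are descriptions of the named genes and were not tested between classes.

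Across the libraries, 13 of the 36 genes set both replicate 3 libraries apart from the other 4 (the map of deviations by gene and library). In 8 genes (22.2%) both replicate 3 libraries lay below the other 4 libraries, where 13.6% of all tested genes did so, and in 5 (13.9%) both lay above them, where 14.2% did so. The 8 were mrpl2, mrpl9, mrpl12, mrpl24, mrpl37, mrps5, mrps31 and mrps36, and the 5 were mrpl3, mrpl20, mrpl27, mrpl44 and mrps10. mrpl24, for example, stood at 5.02, 4.41 and 3.55 CPM in embryos from 14-day-aged sperm, against 5.50, 4.78 and 3.07 CPM in embryos from fresh sperm. mrpl44 went the other way, with 48.1, 46.9 and 53.5 CPM after storage, against 49.4, 50.0 and 58.5 CPM without it. Replicate 1 from aged sperm had 8 of the 36 genes below their mean over the libraries, the fewest of the 6 libraries, with a median deviation of 0.089 on the log2 scale.

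**Figure D4:**
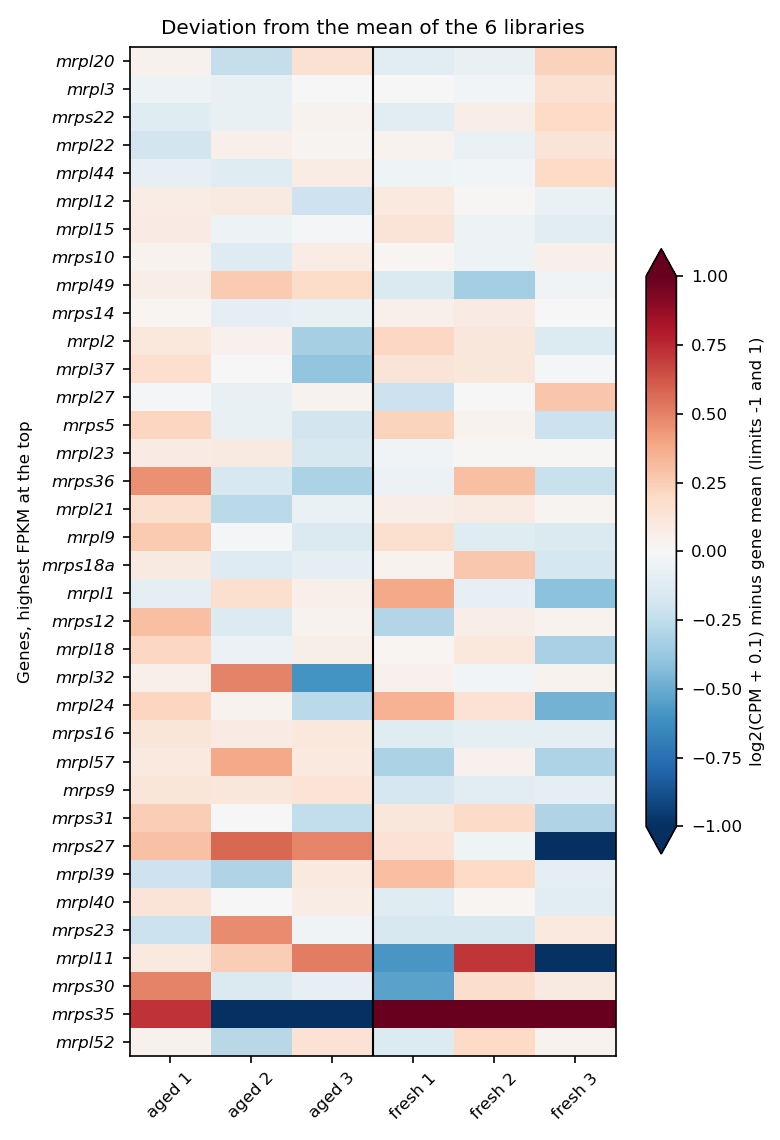
Deviation of log2(CPM + 0.1) of the 36 tested genes from their mean over the 6 libraries, highest FPKM at the top, with the 3 libraries from 14-day-aged sperm on the left. Replicate 3 of each group shares a colour in genes such as mrpl2, mrpl24 and mrps5 (below the mean), and the strongest colours are those of mrps27, mrpl11 and mrps35.

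Set beside the proteins of the cytosolic ribosome, the MRP transcripts were much scarcer. The 46 genes named for cytosolic ribosomal proteins had a median of 45.4 FPKM, against 8.09 FPKM for the MRP genes, and their summed FPKM was 5.68 to 6.73 times that of the MRP genes, by library. Of these genes 43 could be tested, and 0 had an adjusted p under 0.05 in edgeR or DESeq2, with 2 at an unadjusted p under 0.05 in edgeR, where 3.36% of all genes stood. Both were lower after storage, as were 1.9% of all genes. Among them was rps24, with a log2 fold change of -0.27 (SE 0.0984, unadjusted p = 0.0266 from edgeR). The median log2 fold change of the 43 genes was -0.045, against -0.0086 for the MRP genes. This difference was not tested.

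The rest of the mitochondrial translation machinery was read from lists by symbol, and the genes named from it were picked after their values were seen. Of 12 translation factors 8 had a count and 7 could be tested, and 0 had an adjusted p under 0.05 in edgeR or DESeq2 and 0 an unadjusted p under 0.05 in edgeR. tufm, the elongation factor that brings tRNA, had a log2 fold change of -0.16 (SE 0.102), and guf1, a ribosome-bound GTPase, had 0.0085 (SE 0.0762). gfm1, the translocation factor, had 14.2, 31.0 and 22.3 estimated counts in embryos from 14-day-aged sperm, against 57.8, 33.3 and 22.9 in embryos from fresh sperm, with 1 high library from fresh sperm. Of 23 genes for ribosome assembly and rRNA modification 14 could be tested, again with 0 at an adjusted p and 0 at an unadjusted p under 0.05 in edgeR and 0 at an adjusted p in DESeq2. Their log2 fold changes ran from -0.26 for tfb1m, an rRNA methyltransferase, to 0.30 for rbfa, an assembly factor of the small subunit. Of 11 genes for mitochondrial transcription and RNA handling 3 could be tested. polrmt, the mitochondrial RNA polymerase, had a log2 fold change of 0.13 (SE 0.113). tfb2m, its initiation factor, had 97, 80 and 79 counts after storage, against 79, 78 and 60 without it, with a log2 fold change of 0.21 (SE 0.153). The 2 tested subunit genes with other names, chchd1 and gadd45gip1, had log2 fold changes of -0.28 (SE 0.428) and 0.53 (SE 0.389). timm21, a subunit of the import machinery, had 0.21 (SE 0.0981, unadjusted p = 0.0697 from edgeR). The estimated counts of tufm, gfm1, tfb1m, rbfa and polrmt were fractional, and loci that share their reads were not sought. Whether read sharing enters the fold changes of these genes was not tested.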

How the data were processed

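The data are RNA-Seq values of 6 libraries. Deposited tables give FPKM and estimated counts made by the authors. Their reads were mapped to ASM1834038v1 (HISAT2), StringTie and Cuffmerge built transcripts, and Bowtie2 aligned reads to those. Column names cite RSEM, and versions are not given in the sources used here. Genes with no count are not listed and were set to 0. A read that fits several loci is shared out by RSEM, so a gene can be low where its partner is high. The 24 other per-library columns and the authors' own table of p-values and fold changes were not used.

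Counts were rounded, scaled by TMM, filtered with filterByExpr and tested by quasi-likelihood (edgeR 4.0.16, R 4.3.3), with Benjamini-Hochberg adjustment over 27342 genes and a threshold of 0.05. The standard error is the log2 fold change divided by the square root of F. Alternatives used DESeq2 1.42.0 and limma 3.58.1. An exact permutation test of 3 against 3 libraries cannot go below p = 0.1, so none was used. Tests were checked on simulated data. Members and lists were chosen with earlier results of these data known. Named genes were those with an unadjusted p under 0.05, the 5 highest and 5 lowest tested genes, the 3 largest changes each way, genes of best known role, and those whose groups do not overlap, that vary most or that share reads; others were named after their values were seen, so that every member is accounted for. Loci come from the RefSeq table, which matched 44 of 44 symbols. Whether replicate numbers pair libraries is not stated. The values of 1 cytosolic ribosomal protein gene are not reported here.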

Additional observations from a re-analysis of the deposited data

How the results depend on the processing

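The count of 0 MRP genes at an adjusted p under 0.05 was the same in all 18 alternatives run, among them DESeq2 with a fold of 2 and an adjusted p of 0.001. Their median log2 fold change stayed near 0 and took either sign, with -0.053 to 0.061 when a library was left out, the highest without replicate 3 from aged sperm, and 0.010 in DESeq2. The log2 ratio of the summed level was -0.0056 on FPKM. With the read-sharing loci summed, a setting chosen after seeing the data, the genes whose groups were separated numbered 3 and mrps35 had a log2 fold change of 0.024. Other fits left a library out and kept the read-sharing loci apart. There the separated genes numbered 7 to 11 of 36, or 19.4 to 30.6%, against 15.7 to 19.9% of all genes tested. The highest of these, 11, was without replicate 3 from aged sperm.

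Of 24 named genes, 12 changed sign when a library was left out. Their log2 fold changes ran from -0.12 to 0.29 for mrpl1, -0.075 to 0.065 for mrpl12, -0.21 to 0.0070 for mrpl2, -0.11 to 0.087 for mrpl20, -0.11 to 0.0044 for mrpl22, -0.26 to 0.013 for mrpl37, -0.16 to 0.063 for mrpl52, -0.20 to 0.029 for mrps18a, -0.057 to 0.33 for mrps23, -0.060 to 0.34 for mrps30, -0.26 to 0.18 for mrps36 and -0.16 to 0.083 for mrps5. mrps36 was also at -5.3e-06 in limma on log2(FPKM + 0.1).

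Libraries with the same replicate number deviated from their group means with correlations of -0.0025, 0.037 and 0.089 over 27342 genes. These were under the limit set for treating the numbers as pairs, so the main fit has no block. Low correlations over so many genes cannot show that the libraries are unpaired. With the replicate number as a block, 0 genes were called, the median log2 fold change was -0.017, and mrps36 stood at -0.010. Among the 8 genes too low to test, depth is the limit.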
